A study of Homo sapiens with 24 samples.

Results

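The cytosolic ribosome consists of ribosomal RNA and a fixed set of proteins, and the genes of those proteins are described here. The members are the genes whose symbol is RPL or RPS followed by a number, with an optional A or X at the end, and RPLP0, RPLP1, RPLP2 and RPSA. This rule found 77 of 23595 genes, 46 of the large subunit (RPL and RPLP) and 31 of the small subunit (RPS and RPSA). It uses names only and no measured value. The study sequenced polyadenylated RNA from cultures of IMS-M2 and U937, both human lines of acute myeloid leukaemia and U937 of monocytic type. For either line the medium contained folic acid (+FA) or lacked it (-FA), and the cells were given DMSO, a common solvent, or OTX, so that the 24 libraries form 8 groups of 3. The labels do not spell out what OTX is, and they give no dose or duration. Each group is thus 1 established line in 1 medium with 1 treatment, and no group carries an engineered allele. Levels are in FPKM, the fragments of a gene divided by its transcript length and by the mapped fragments of the library. In bulk RNA on such a scale, fewer cells and less RNA per cell cannot be told apart, and a change in the total RNA of a cell does not show.

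Each cytosolic ribosome holds 1 copy of nearly every ribosomal protein, with the acidic stalk proteins as the exception. The proteins are made in the cytosol, carried into the nucleus by dedicated chaperones, and joined to pre-ribosomal RNA in the nucleolus. Their mRNAs are short, very abundant, and mostly begin with a run of pyrimidines (the 5′ terminal oligopyrimidine or TOP motif), through which mTOR signalling and LARP1 control their translation. Loss of a single copy of some of these genes causes Diamond-Blackfan anaemia, a failure of red cell formation. RPL5, RPL11 and RPS14 are among those mutated or lost in leukaemia or myelodysplasia. Many members have processed pseudogenes elsewhere in the genome, and how the authors' processing shared reads between near-identical copies is not given in the sources used here.

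The start of transcription is shown for members on which the results below turn, because the pyrimidine run is the sequence feature that this family shares. RefSeq promoters of the build GRCh38.p14 were matched by symbol for 62 of the 77 members. Each line gives the 25 bases before the annotated start and the 15 bases from it, 5′ to 3′ on the gene's strand, and capitals mark a run of at least 5 C or T that opens with C at the start base.
RPL13A: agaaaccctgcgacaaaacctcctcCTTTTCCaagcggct
RPL29: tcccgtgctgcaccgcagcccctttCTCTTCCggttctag
RPL14: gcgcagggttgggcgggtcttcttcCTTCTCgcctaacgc
RPL11: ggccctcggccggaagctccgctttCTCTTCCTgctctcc
RPSA: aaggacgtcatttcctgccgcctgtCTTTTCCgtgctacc
RPL12: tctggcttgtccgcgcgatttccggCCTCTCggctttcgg
RPS25: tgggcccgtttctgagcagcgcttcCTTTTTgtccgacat
RPS21: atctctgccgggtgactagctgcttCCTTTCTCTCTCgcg
RPS14: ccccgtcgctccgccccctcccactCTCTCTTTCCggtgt
RPL3: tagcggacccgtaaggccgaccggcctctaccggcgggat
RPL3 is shown as a member without a run of that length at its annotated start. For RPL11, which has more than 1 start in the table, the start with the longest run is shown.

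Of the 62 matched members, 46 (74.2%) had such a run at a start, against 5.14% of 27305 genes in the same table. The share was 28 of 38 large subunit members and 18 of 24 small subunit members. In the 300 bases around the start, with both strands searched and matches of different motifs allowed to overlap, CCGGAAG (the ETS factor motif) was found in 35.5% of members and 12.2% of all genes, and ATGGCGG (the YY1 motif) in 22.6% and 6.66%. GGGCGG (the GC box) was found in 58.1% of members and 48.3% of all genes, TATAAA (the TATA box) in 8.06% and 14.0%, and CACGTG (the E-box) in 6.45% and 8.78%. These matches describe letters in a window and do not show binding.

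The libraries had FPKM sums of 522659 to 644841, with 10418 to 10894 genes at 1 FPKM or more. All 7 myeloid markers checked were detected in both lines, with summed levels of 66.2 to 247 FPKM in IMS-M2 and 470 to 2084 FPKM in U937. Of 3 epithelial markers, EPCAM was at 0 in every library, and the list summed to 60.3 to 96.4 FPKM in IMS-M2 and at most 0.0491 FPKM in U937. The B cell list summed to 5.34 to 23.4 FPKM in IMS-M2 and to 2.27 to 5.69 FPKM in U937, with MS4A1 at 0 in every library. With OTX, 7 of 7 myeloid markers fell in IMS-M2 in either medium, with log2 changes of -2.80 for SPI1 and -2.54 for LYZ in +FA, whereas in U937 3 fell in +FA and 4 in -FA, and ITGAM, MPO and PTPRC rose in both. The part of these marker changes in the members' values was not tested. Of 77 members, 76 reached a mean of 1 FPKM in every group. RPL21 varied from 0.0174 to 1637 FPKM, with 0.0174 and 327 FPKM among replicates of the IMS-M2 +FA DMSO group, and shares its locus in the tables with the pseudogene RPL21P28 and 2 small RNA genes. In all, 36 members share a locus with another listed gene, 27 of them with a small RNA gene.

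Ribosomal protein mRNAs made up a large part of each library, and that part was smaller with OTX in U937. Summed over the 77 members, they took 26.2, 25.2 and 24.1% of the FPKM sum in U937 +FA DMSO and 20.4, 20.5 and 20.9% in U937 +FA OTX. In U937 -FA they took 24.3, 23.2 and 25.8% with DMSO and 18.1, 17.6 and 17.4% with OTX. Neither pair of groups overlapped. The mean share with OTX was 0.818 times that with DMSO in U937 +FA, and 0.724 times in U937 -FA.

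In IMS-M2 the share was higher and moved less. It was 30.6, 32.6 and 31.4% with DMSO and 29.3, 29.4 and 29.5% with OTX in +FA, where the groups did not overlap and the mean with OTX was 0.933 times that with DMSO. In IMS-M2 -FA it was 31.1, 29.0 and 29.8% with DMSO and 29.3, 27.3 and 28.8% with OTX, and the groups overlapped. The lines come from separate tables whose shared normalization is not known, so the levels of IMS-M2 and U937 are set side by side without a test. With 3 libraries against 3, an exact permutation test cannot go below p = 0.10, so no p is given for these shares.

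**Figure D1:**
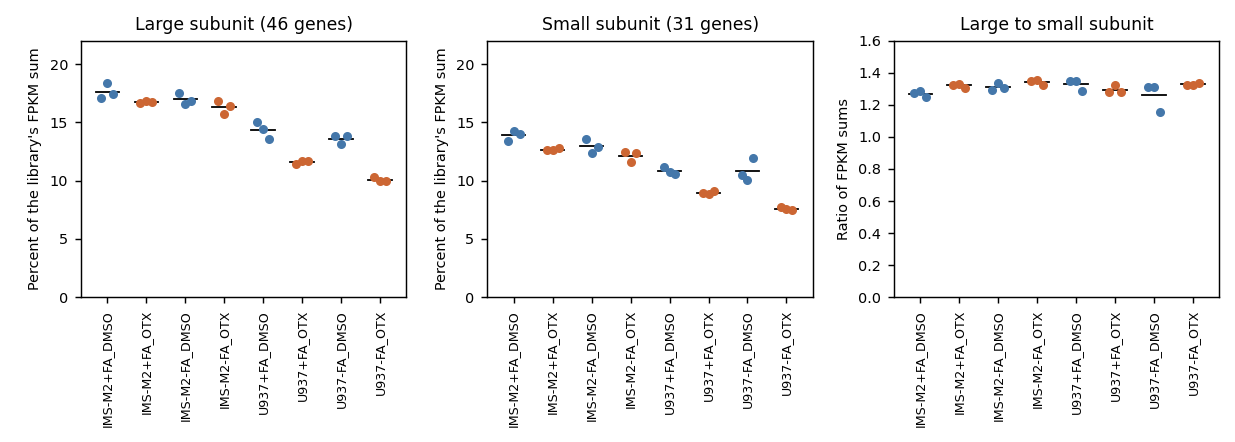
Share of each library's FPKM sum taken by large subunit genes and by small subunit genes, in percent, and the ratio of both sums, for the 24 libraries; points are libraries, lines are means of 3, blue is DMSO and orange is OTX. Both shares are lower in all OTX libraries than in all DMSO libraries of U937, while the ratio stays between 1.16 and 1.35.

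The first question was what OTX did to each member in U937 with folic acid. Of 77 members, 41 (53.2%) fell and 0 rose, at an adjusted p below 0.05 in limma's fit over all tested genes. Over 11194 tested genes, 27% were called lower and 29.1% higher. The median log2 change was -0.38 over the members (28 of 46 large and 13 of 31 small subunit members fell) and 0.02 over all tested genes. At an unadjusted p under 0.05 in limma, 45 members were lower and 0 higher, and 1 was called higher when the U937 +FA table was fitted alone. No share of all tested genes is given at that threshold or for that fit. In U937 without folic acid, 56 members (72.7%) fell and 2 (2.6%) rose, against 31.7% lower and 28% higher of all tested genes. There the median was -0.62 over the members and -0.02 over all tested genes. Of the members that fell, 27 fell in both conditions, which is 65.9% of those with folic acid and 48.2% of those without. The same overlap over all tested genes is not given here. Scaled to the median member, which by construction removes a shift shared by the family, 9 members fell and 9 rose in +FA. In -FA 9 fell and 15 rose. The median of all tested genes was then 0.34 and 0.51, with folic acid first. The share of all tested genes called under this scaling is not given here, so these counts have no background beside them.

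RPL13A (hg19 chr19:49990810-49995564, a locus that also holds small nucleolar RNA genes in introns) encodes a large subunit protein that is also known for silencing inflammatory mRNAs in monocytic cells. In U937 +FA it was at 768, 648 and 681 FPKM with DMSO and at 394, 435 and 387 FPKM with OTX. In U937 -FA the values were 757, 630 and 692 FPKM and then 392, 360 and 341 FPKM. Every OTX library lay below every DMSO library, with a log2 change of -0.78 ± 0.10 (standard error, adjusted p = 5.55e-05) in +FA and -0.92 ± 0.10 (adjusted p = 1.45e-05) in -FA.

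RPL29 (hg19 chr3:52027643-52029958), a small basic protein of the large subunit, was at 2025, 2008 and 1993 FPKM in U937 +FA DMSO and at 1302, 1027 and 1067 FPKM with OTX. Without folic acid it was at 1972, 2063 and 1693 FPKM with DMSO and at 1124, 1155 and 1033 FPKM with OTX. The DMSO and OTX libraries did not overlap in either condition, and the log2 changes were -0.83 ± 0.11 and -0.79 ± 0.11 (adjusted p = 6.11e-05 and 8.71e-05).

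RPL5 and RPL11 form the 5S particle with 5S ribosomal RNA, and the free particle binds MDM2 and so stabilises p53. RPL5 was at 1338, 1173 and 1141 FPKM in U937 +FA DMSO and at 736, 773 and 801 FPKM with OTX. In U937 -FA it was at 1102, 1054 and 1245 FPKM with DMSO and at 615, 615 and 653 FPKM with OTX. Its log2 changes were -0.66 ± 0.09 and -0.85 ± 0.09 (adjusted p = 0.000109 and 1.45e-05), with no overlap of libraries. RPL11 (hg19 chr1:24018268-24022915) was at 2444, 2111 and 2225 FPKM against 1682, 1682 and 1657 FPKM in +FA, and at 2086, 2101 and 1892 FPKM against 1390, 1443 and 1399 FPKM in -FA. It also fell in both, by 0.43 ± 0.08 and by 0.52 ± 0.08 on the log2 scale (adjusted p = 0.00102 and 0.000248).

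RPL3, which lies near the peptidyl transferase centre, RPL14, of the large subunit, and RPSA, a small subunit protein also known as the laminin receptor, were picked after their values were seen. RPL3 fell by 0.52 ± 0.12 in +FA and by 0.92 ± 0.12 in -FA (adjusted p = 0.00326 and 5.24e-05). RPL14 fell by 0.65 ± 0.13 and by 0.83 ± 0.13 (adjusted p = 0.00163 and 0.000265). RPSA was at 2076, 1784 and 2002 FPKM against 1588, 1465 and 1650 FPKM in U937 +FA, and at 1872, 1674 and 2130 FPKM against 1161, 1063 and 1125 FPKM in -FA. Its fall was 0.32 ± 0.10 in +FA and 0.75 ± 0.10 in -FA (adjusted p = 0.0232 and 8.88e-05), and the groups did not overlap in either.

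RPS2, at the entry of the mRNA channel and one of the most abundant members, was at 4865, 4247 and 4082 FPKM in U937 +FA DMSO and at 3613, 3307 and 3235 FPKM with OTX. In -FA it was at 4362, 3959 and 3917 FPKM and then at 2929, 2625 and 2429 FPKM. It fell by 0.38 ± 0.10 in +FA and by 0.62 ± 0.10 in -FA (adjusted p = 0.00938 and 0.000358). All OTX libraries were below all DMSO libraries. Of the 5 members listed at the beak and the mRNA entry, 2 fell in +FA and 5 in -FA, beside 53.2% and 72.7% of the family and 27% and 31.7% of all tested genes.

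The stalk of the large subunit, which recruits translation factors that hydrolyse GTP, comprises RPLP0, RPLP1, RPLP2 and RPL12. In U937 +FA 0 of these 4 were called by limma (0 also at an unadjusted p under 0.05), and 3 fell in U937 -FA. RPLP2 was at 2929, 2636 and 3200 FPKM in U937 -FA DMSO and at 1602, 1688 and 1692 FPKM with OTX, a log2 change of -0.81 ± 0.11 (adjusted p = 7.19e-05), while in +FA the groups overlapped, at 2483 to 3191 FPKM and 2521 to 2676 FPKM. RPL12, the base of the stalk, was not called in U937 in either condition (log2 change -0.18 ± 0.09 in +FA and -0.07 ± 0.09 in -FA, adjusted p = 0.0992 and 0.542). Around the peptide exit tunnel, 3 of 7 members fell in +FA and 4 of 7 in -FA, and none of them fell in both. At the mRNA exit 0 of 3 fell in +FA by limma (0 at an unadjusted p under 0.05) and 3 of 3 in -FA. The shares called lower were 53.2% and 72.7% over the family and 27% and 31.7% over all tested genes.

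RPS19, the gene most often mutated in Diamond-Blackfan anaemia, was at 980, 1436 and 1437 FPKM in U937 +FA DMSO and at 852, 711 and 554 FPKM with OTX, and fell by 0.86 ± 0.26 (adjusted p = 0.0138). In U937 -FA it was at 1088, 1218 and 599 FPKM with DMSO and at 858, 859 and 696 FPKM with OTX, where the groups overlapped and it was not called (log2 change -0.21 ± 0.26, adjusted p = 0.501). Of the 6 members listed for leukaemia or myelodysplasia, 3 fell in +FA and 5 in -FA, shares near those of the whole family (53.2% and 72.7%, against 27% and 31.7% of all tested genes). RPL22, deleted or mutated in some leukaemias, fell by 0.56 ± 0.12 in +FA and by 0.46 ± 0.12 in -FA (adjusted p = 0.00217 and 0.0072). RPS14 (hg19 chr5:149823791-149829319), the small subunit gene of the 5q- syndrome, was at 2644, 2156 and 4275 FPKM in U937 -FA DMSO and at 1364, 1189 and 1255 FPKM with OTX. It fell by 1.19 ± 0.24 there (adjusted p = 0.00109). In U937 +FA its groups overlapped, and its log2 change was -0.28 ± 0.24 (adjusted p = 0.332).

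The exceptions in U937 -FA were RPS20 and RPS27, the 2 members that rose. RPS20, which binds the head of the small subunit, was at 807, 938 and 695 FPKM with DMSO and at 1066, 1187 and 1111 FPKM with OTX, a log2 change of 0.47 ± 0.12 (adjusted p = 0.00632). RPS27, a zinc finger protein of the small subunit, rose by 0.47 ± 0.18 (adjusted p = 0.0377). The rise of RPS20 was called under every alternative, while that of RPS27 was not called with no filter on low values, nor with the covariate described below (0.20, adjusted p = 0.244), nor without any 1 of 4 libraries of this medium (DMSO columns 0 and 2 and OTX columns 0 and 1). In U937 +FA neither was called.

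**Figure D2:**
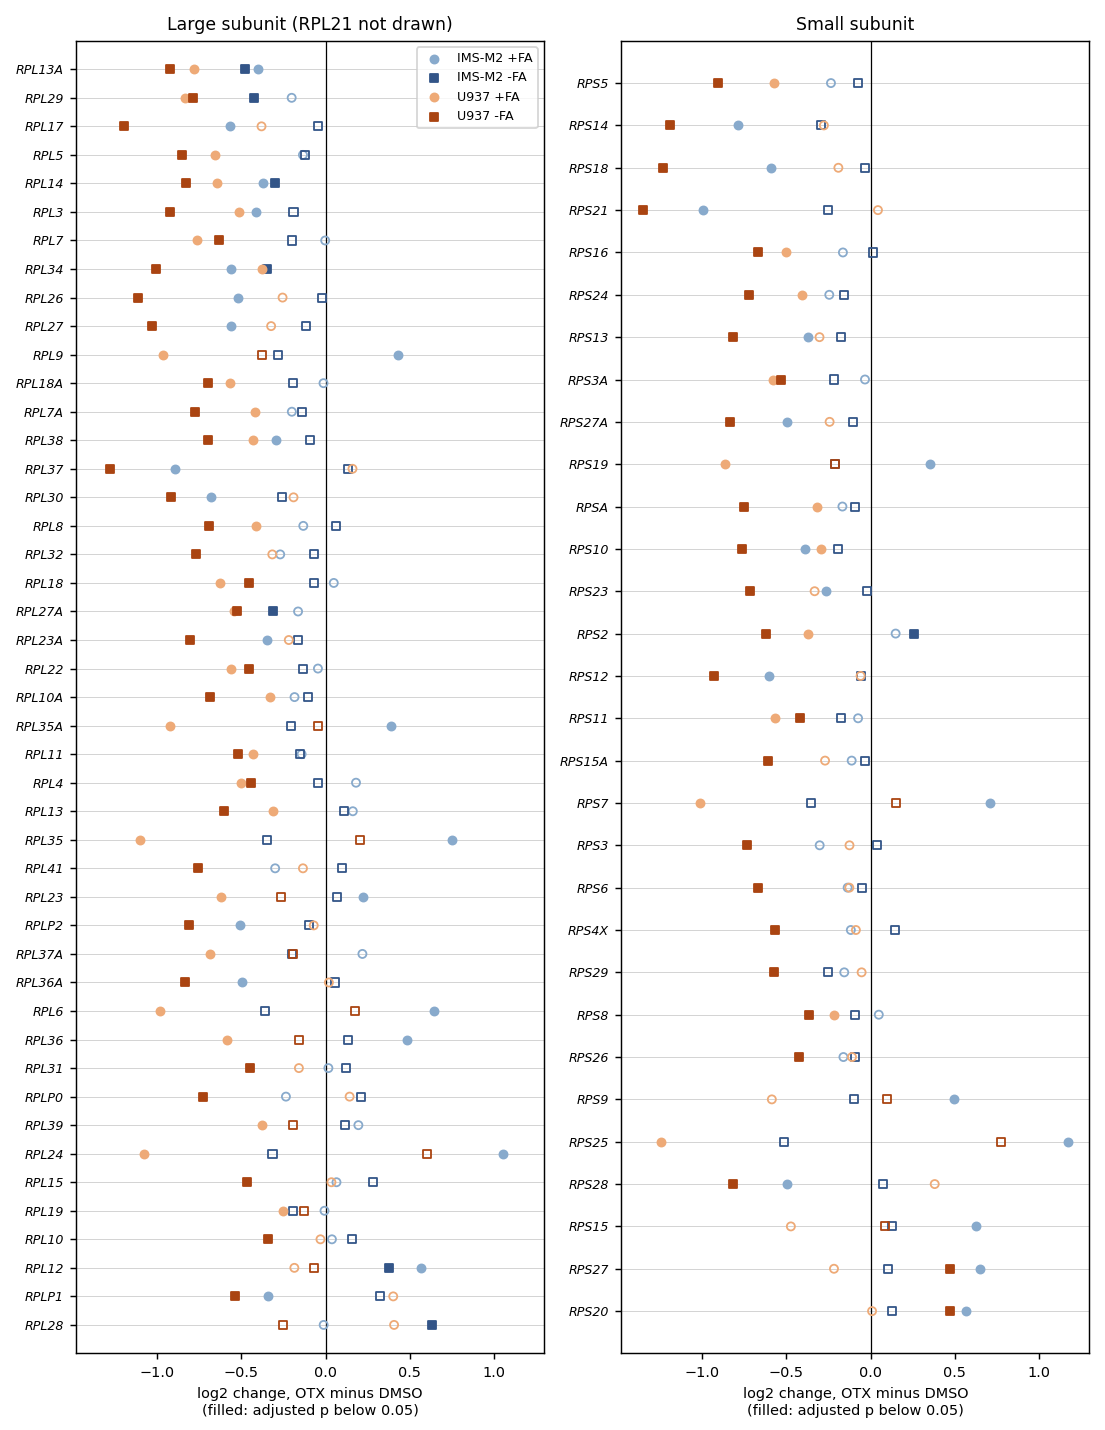
The log2 change of each member, OTX minus DMSO, with large subunit genes on the left and small subunit genes on the right, ordered by their mean change in U937; circles are +FA, squares are -FA, blue is IMS-M2 and orange is U937, and filled symbols passed the test. Of 77 members, 41 in U937 +FA and 56 in U937 -FA fell, against 27% and 31.7% of all tested genes. Relative to the median member 9 and 9 fell, with no background share given for that scaling. RPL21 and 1 other member are not drawn.

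In IMS-M2 the members did not move one way. With folic acid, 23 of 77 (29.9%) fell and 15 (19.5%) rose, against 33.4% lower and 29.8% higher of 11223 tested genes, so that both shares were below the background. The median log2 change was -0.14 over the members and -0.03 over all tested genes. Without folic acid, 5 (6.49%) fell and 3 (3.9%) rose, against 30% lower and 27.5% higher of all tested genes, with medians of -0.10 and -0.01. The total of 8 called there was 19 when IMS-M2 +FA DMSO replicate 1, which shares the estimate of the spread, was left out, and 5 when IMS-M2 -FA OTX replicate 1 or replicate 3 was. No share of all tested genes is given for those fits. Of the members that fell, RPL13A, RPL14 and RPL34 fell in both conditions, which is 13% of those with folic acid and 60% of those without, and of those that rose only RPL12 rose in both. These overlaps too have no counterpart over all tested genes here.

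RPL13A was at 1235, 1481 and 1447 FPKM in IMS-M2 +FA DMSO and at 1076, 1060 and 1012 FPKM with OTX. In -FA it was at 1563, 1322 and 1442 FPKM with DMSO and at 1069, 996 and 1032 FPKM with OTX. The groups did not overlap, and the fall was 0.40 ± 0.09 in +FA and 0.48 ± 0.09 in -FA (adjusted p = 0.00222 and 0.000691). RPL13A was thus called lower in all 4 contrasts of OTX with DMSO, as were RPL14 and RPL34.

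RPL12 (hg19 chr9:130209952-130213711) moved the other way in this line. It was at 2137, 2063 and 1992 FPKM in IMS-M2 +FA DMSO and at 3006, 2997 and 3186 FPKM with OTX. In -FA it was at 2472, 2137 and 2349 FPKM and then at 2896, 2935 and 3207 FPKM. All OTX libraries were above all DMSO libraries, with log2 changes of 0.57 ± 0.08 and 0.38 ± 0.08 (adjusted p = 7.23e-05 and 0.00187). RPL28, a large subunit protein, rose in IMS-M2 -FA, from 944, 886 and 980 FPKM to 1515, 1365 and 1486 FPKM (log2 change 0.64 ± 0.14, adjusted p = 0.00181). RPL29 and RPL27A fell in IMS-M2 -FA by 0.43 ± 0.10 and by 0.31 ± 0.08 (adjusted p = 0.00207 and 0.00722). RPS2 rose there by 0.26 ± 0.09 (adjusted p = 0.0283), from 5539, 4924 and 5035 FPKM to 6201, 5866 and 6473 FPKM.

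RPL5 and RPL11 were not called in IMS-M2, with log2 changes of -0.13 ± 0.10 and -0.14 ± 0.09 in +FA and of -0.12 ± 0.10 and -0.15 ± 0.09 in -FA (adjusted p from 0.165 to 0.312). Among the 9 members listed for Diamond-Blackfan anaemia, 1 fell and 3 rose in IMS-M2 +FA, against 33.4% lower and 29.8% higher of all tested genes, and 0 were called in -FA by limma (0 at an unadjusted p under 0.05). The small subunit had 0 members that fell in IMS-M2 -FA by limma (1 at an unadjusted p under 0.05) and 1 that rose, RPS2.

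**Figure D3:**
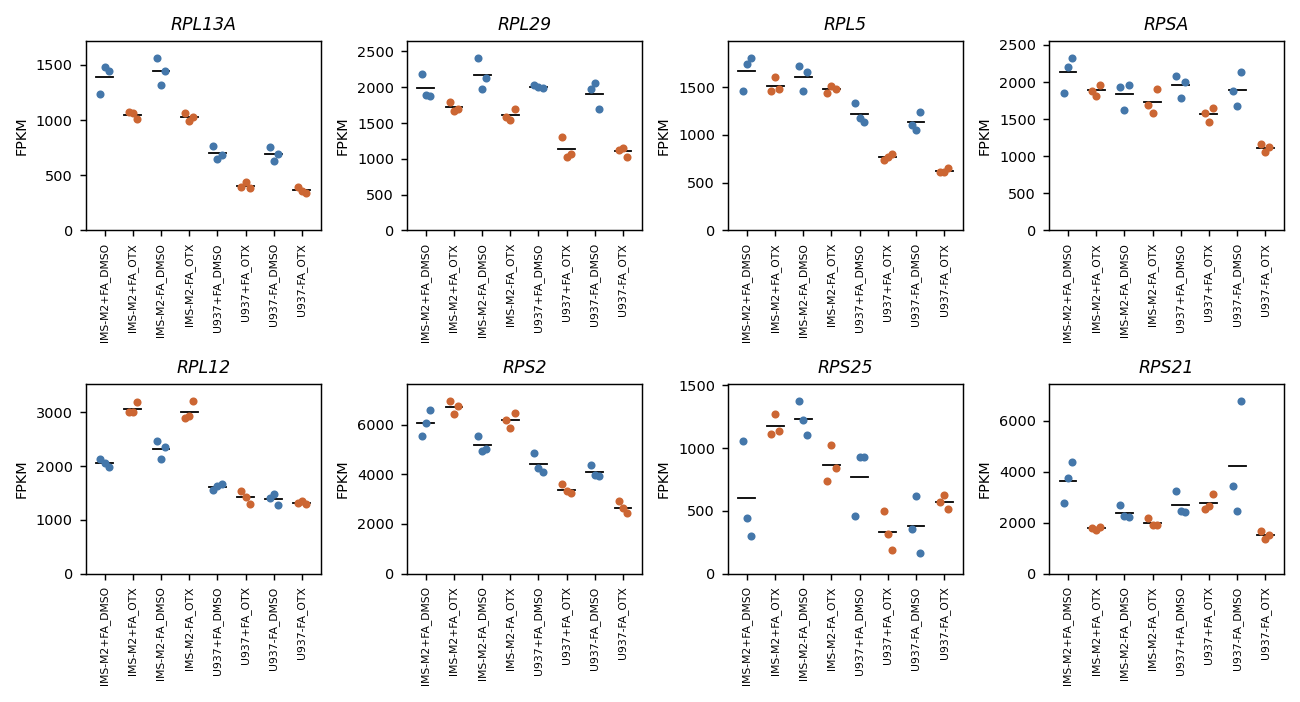
FPKM of 8 members in each of the 24 libraries, by group; points are libraries, lines are means of 3, blue is DMSO and orange is OTX, and each panel has its own axis from 0. RPL13A is lower with OTX in all 4 pairs of groups, RPL12 is higher with OTX in IMS-M2 at 2896 to 3207 FPKM, and RPS25 and RPS21 vary between libraries of the same group.

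The change of a member was also compared between the lines, by subtracting the IMS-M2 change from that of U937 in 1 fit over all 24 libraries. With folic acid, 31 members (40.3%) had a lower change in U937 and 4 (5.19%) a higher one, against 22.9% and 27.7% of 12197 tested genes, with medians of -0.25 over the members and 0.04 over all tested genes. Without folic acid, 51 (66.2%) had a lower change in U937 and 0 a higher one by limma (1 at an unadjusted p under 0.05), against 21.5% lower and 21.5% higher of all tested genes, with medians of -0.57 and -0.02. Relative to the median member, 1 was lower and 14 were higher without folic acid, and 16 lower and 21 higher with it. No background share is given for that scaling. RPL12 differed in both media (-0.75 ± 0.11 with folic acid and -0.44 ± 0.11 without, adjusted p = 1.39e-05 and 0.00308), and so did RPL5 (-0.52 ± 0.13 and -0.73 ± 0.13, adjusted p = 0.00234 and 0.000137). RPL13A, which fell in both lines, had a lower change in U937 without folic acid (-0.44 ± 0.13, adjusted p = 0.00987). RPS2, which rose in IMS-M2 and fell in U937 without folic acid, differed by -0.88 ± 0.13 (adjusted p = 1.95e-05). Across 76 members (without RPL21), the changes in the lines had a Pearson correlation of -0.53 with folic acid and of -0.15 without, as a description. With the within-group index described below as a covariate these were 0.35 and 0.08, so that the sign turned.

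The title of the series asks whether folic acid alters the effect of OTX. The change without folic acid minus the change with it was called in 4 members lower and 1 higher in IMS-M2, against 3.61% and 3.33% of all tested genes, and in 1 lower and 0 higher in U937, against 1.27% and 0.741%. In IMS-M2 the 5 were RPL24 (-1.37 ± 0.33), RPL6 (-1.004 ± 0.25), RPL9 (-0.71 ± 0.18) and RPS25 (-1.69 ± 0.46) on the lower side and RPS21 (0.74 ± 0.21) on the higher side, with adjusted p from 0.0349 to 0.0494. In U937 it was RPLP2 (-0.74 ± 0.15, adjusted p = 0.0454). At an unadjusted p under 0.05 in limma, the U937 counts were 29 lower and 11 higher. The shares above are at an adjusted p, and none is given for all tested genes at the unadjusted threshold. The counts turned on single libraries: in IMS-M2 the total of 5 became 36 without IMS-M2 +FA DMSO replicate 1, 8 without IMS-M2 -FA OTX replicate 2, and 0 or 1 without any other library. In U937 the total of 1 became 33 without U937 +FA DMSO replicate 1, 36 without U937 -FA DMSO column 1, and 0 without any other library. The share of all tested genes called in the fits with a library left out is not given here. Whether these rises are particular to the members was thus not tested. The median difference in U937 was -0.29 over the members and -0.05 over all tested genes, and 76 of 77 members were not called. The larger count and median fall without folic acid in U937 thus came with 1 called difference, in RPLP2. That share of the members was near the 1.27% called lower over all tested genes. None of the calls in either line held under every alternative other than scaling to the median member.

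Libraries of the same group differed from each other along 1 axis, and this bears on the members' values. RPS25 was at 1053, 445 and 298 FPKM in the 3 IMS-M2 +FA DMSO libraries, while RPS21 was at 2763, 3771 and 4370 FPKM in the same libraries. In the U937 -FA DMSO libraries RPS25 was at 356, 619 and 163 FPKM and RPS21 at 3424, 2442 and 6764 FPKM. The ratio of RPS25 to RPS21, both small subunit proteins, ran from 0.0242 in U937 -FA DMSO column 2 to 0.735 in an IMS-M2 +FA OTX library. The first axis of such differences took 59.8% of the within-group sum of squares of the members (without RPL21). It took 33.3% in 3973 other genes whose mean was 20 FPKM or more, and the positions of the 24 libraries on both axes had a Pearson correlation of 0.97, as a description.

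An index of this axis was made from other genes only, as the mean log2 level of the 100 that rose most along it minus that of the 100 that fell most. Within groups, 19 members rose with the index at a correlation over 0.5, among them RPS25, RPL35 and RPL24, and 34 fell with it at one under -0.5, among them RPL37, RPL17 and RPS21. The index was 0.28, -0.75 and -1.15 in the IMS-M2 +FA DMSO libraries and 0.46, 0.39 and 0.33 in the OTX libraries of that medium, with no overlap. It was -0.27, 0.30 and -1.62 in U937 -FA DMSO and 0.65, 0.66 and 0.21 in U937 -FA OTX. In U937 +FA it was -0.48, 0.48 and 0.44 with DMSO and 0.28, -0.33 and -0.98 with OTX, and in IMS-M2 -FA all libraries lay between -0.01 and 0.41. Across 76 members, the OTX change and the slope on the index had a Pearson correlation of 0.89 in IMS-M2 +FA, -0.27 in IMS-M2 -FA, -0.70 in U937 +FA and 0.82 in U937 -FA. What sets the axis was not tested.

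**Figure D4:**
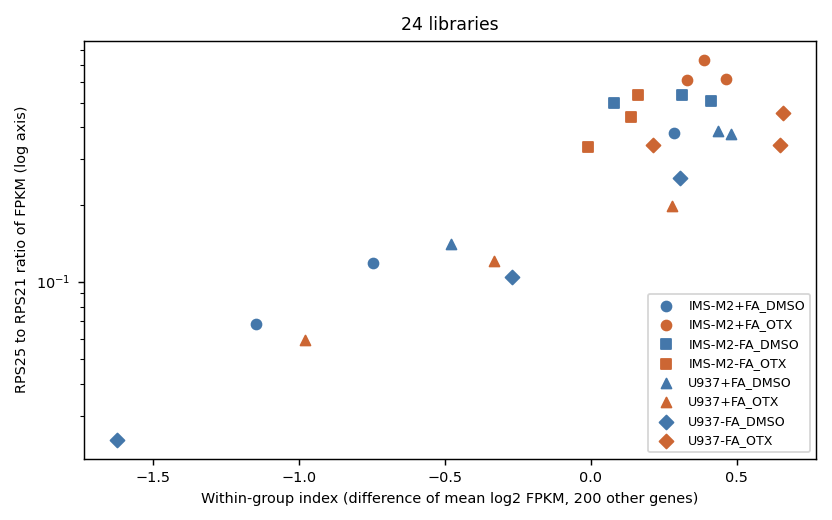
Ratio of RPS25 to RPS21 (FPKM, log axis) against the within-group index made from 200 other genes, for the 24 libraries; shape gives the line and medium, blue is DMSO and orange is OTX. The ratio runs from 0.0242 to 0.735, and libraries of 1 group can lie far apart.

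A fit with the index as a covariate, chosen after the data were seen, showed which counts moved with it. In U937 +FA 58 members fell and 0 rose by limma (1 higher at an unadjusted p under 0.05), against 32.5% and 35% of all tested genes. In U937 -FA 66 fell and 1 rose (34.4% and 30.9%). In IMS-M2 +FA the counts dropped to 4 lower and 5 higher (25.4% and 26.6%), and in IMS-M2 -FA they were 14 lower and 5 higher (33.4% and 29.5%). The members with a lower change in U937 than in IMS-M2 numbered 41 with folic acid and 50 without (22.8% and 20.9% of all tested genes). The covariate can also take up part of the OTX change, since the index differed between the groups.

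Single members followed the same division. RPS25 rose in IMS-M2 +FA by 1.17 ± 0.33 (adjusted p = 0.00734), and its change was 0.02 with the covariate (adjusted p = 0.927). RPL24 rose there by 1.05 ± 0.23 (adjusted p = 0.00152), and its change was 0.34 with the covariate (adjusted p = 0.13). RPS21 changed in IMS-M2 +FA by -0.995 ± 0.14 (adjusted p = 7.13e-05) and RPL12 by 0.57 ± 0.08, and with the covariate the changes were -0.62 and 0.51 (adjusted p = 0.00368 and 0.00165). In U937, RPL5 kept a change of -0.73 in +FA and of -0.71 in -FA, and RPL13A one of -0.80 and of -0.88. Among the largest falls in both U937 media were members that move with the index. In U937 +FA they were RPS25 (-1.25 ± 0.46, groups overlapping), RPL35 (-1.10 ± 0.30), RPL24 (-1.08 ± 0.27) and RPS7 (-1.01 ± 0.27), whose within-group correlations with the index were 0.92 to 0.98, and with the covariate their changes were -0.75, -0.79, -0.80 and -0.74. In U937 -FA they were RPS21 (-1.35 ± 0.29), RPL37 (-1.28 ± 0.42), RPS18 (-1.23 ± 0.23) and RPL17 (-1.20 ± 0.26), and with the covariate their changes were -0.77, -0.38, -0.79 and -0.64. Called in the same direction under every alternative other than scaling to the median member were 26 of the 41 members that fell in U937 +FA and 52 of the 56 in U937 -FA, against 3 of the 23 that fell and 2 of the 15 that rose in IMS-M2 +FA. In IMS-M2 -FA these were 3 of 5 that fell and 2 of 3 that rose, and in U937 -FA 1 of 2 that rose. The share of all called genes that held under the same alternatives is not given here.

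**Figure D5:**
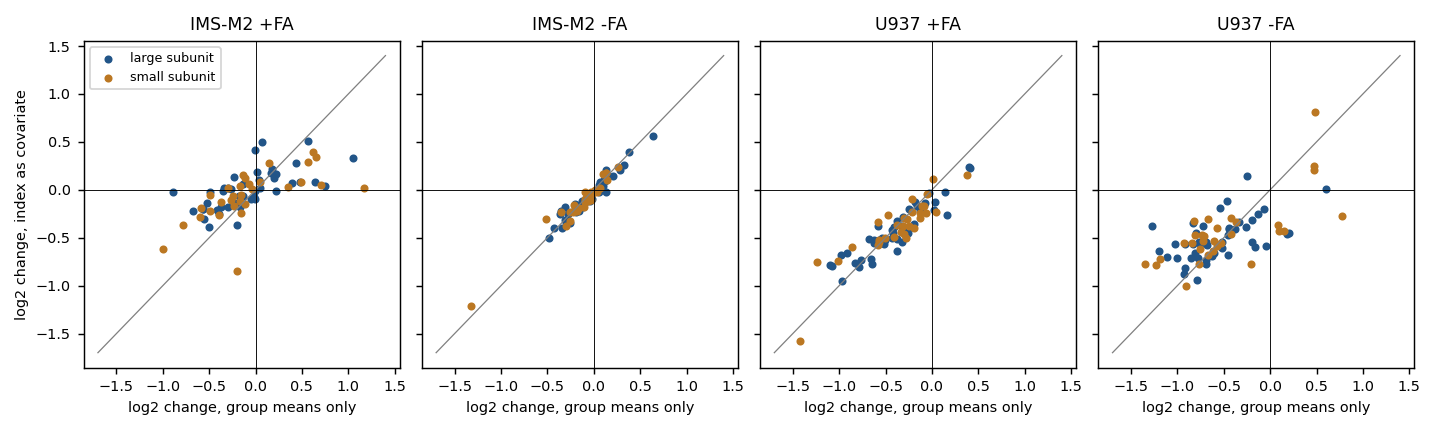
The log2 change of each member (without RPL21), OTX minus DMSO, from group means only on the horizontal axis and with the within-group index as a covariate on the vertical axis, for the 4 pairs of groups; the grey line marks equal values. In both U937 panels most members stay below 0 on both axes, and in IMS-M2 +FA the changes shrink, RPS25 from 1.17 to 0.02.

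Large and small subunit genes were compared by counts and medians. In U937 +FA the median was -0.41 over the 46 large and -0.30 over the 31 small subunit members, and in U937 -FA it was -0.62 in both. In IMS-M2 +FA the medians were -0.13 and -0.16, and in IMS-M2 -FA they were -0.11 and -0.09. The ratio of the summed large to the summed small subunit FPKM ran from 1.16 to 1.35 over all libraries. Its mean with OTX was 1.32 against 1.27 with DMSO in IMS-M2 +FA and 1.33 against 1.26 in U937 -FA, and the groups did not overlap in either. In the other 2 pairs of groups the libraries overlapped. The lowest ratio, 1.16, belonged to U937 -FA DMSO column 2, which also had the lowest index. Without that library the DMSO mean in U937 -FA was 1.31, and the difference from OTX went from 0.069 to 0.0165, with the groups still apart.

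Members with a pyrimidine run at the start and those without are set side by side here. In U937 -FA, 33 of the 46 members with the run and 11 of the 16 without fell, with medians of -0.67 and -0.52. In U937 +FA these counts were 24 of 46 and 7 of 16, with medians of -0.35 and -0.33. In IMS-M2 +FA, 16 fell and 9 rose of the 46 with the run, and 4 fell and 4 rose of the 16 without, with medians of -0.17 and -0.14. In IMS-M2 -FA, 5 fell and 2 rose of those with the run and 0 were called by limma of those without (3 at an unadjusted p under 0.05), with medians of -0.10 in both. Of all tested genes, 31.7% were called lower in U937 -FA and 27% in U937 +FA. In IMS-M2 33.4% were lower and 29.8% higher in +FA, and 30% and 27.5% in -FA. The IMS-M2 shares of both sets were near or below these. The difference between both sets was not tested.

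Levels per length differed widely among the members. By the mean of the 8 group means, the highest were RPLP1 with 9443 FPKM, RPS18 with 7390.3 FPKM, RPL41 with 5102 FPKM and RPS2 with 4829 FPKM, and among the lowest were RPL27A with 152 FPKM, RPS23 with 321 FPKM and RPL21 with 331 FPKM. RPLP1 was at 9798, 14332 and 14382 FPKM in IMS-M2 +FA DMSO and at 6468, 6120 and 6464 FPKM in U937 -FA OTX, its highest and lowest group means. RPS18 was at 11066 ± 2214 FPKM in IMS-M2 +FA DMSO and at 3361 ± 291 FPKM in U937 -FA OTX (mean ± SD, n = 3), also the highest and lowest of its 8 groups. Of the 76 members that reached a mean of 1 FPKM in every group, 48 were higher in IMS-M2 than in U937 in DMSO with folic acid and 52 without. The median ratio of IMS-M2 to U937 was 1.13 in both media. RPL13A was 1.99 times higher in IMS-M2 with folic acid and 2.08 times without. These ratios cross tables and were not tested.

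Genes around the family were read from lists of other TOP mRNA genes, regulators and chaperones. Of 20 translation factors and other TOP mRNA genes, 11 fell and 1 rose in U937 +FA and 17 fell and 1 rose in U937 -FA, with medians of -0.34 and -0.59, while in IMS-M2 5 fell and 3 rose in +FA and 4 fell and 4 rose in -FA. Of all tested genes, 27% and 31.7% were called lower in U937 and 33.4% and 30% in IMS-M2, with folic acid first, so the IMS-M2 counts lay below that share. EIF4B, which helps unwind mRNA for initiation, fell in all 4 contrasts, with log2 changes of -0.55 and -0.66 in IMS-M2 and of -0.77 and -0.71 in U937, with folic acid first (standard errors 0.07 to 0.08). TPT1, the translationally controlled tumour protein and itself a TOP mRNA, rose in all 4, with log2 changes of 0.97, 0.75, 0.73 and 0.53 (standard errors 0.09). Of 8 chaperones of ribosomal proteins, 5 and 7 fell in IMS-M2 with and without folic acid and 6 and 6 in U937, and 0 rose by limma in any of the 4 (0 at an unadjusted p under 0.05), beside the same shares of all tested genes. PDCD2L, a paralogue of the RPS2 chaperone PDCD2, fell in each, with log2 changes of -0.70 and -0.62 in IMS-M2 and of -1.53 and -1.71 in U937 (standard errors 0.09 to 0.10).

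The mTOR pathway genes moved both ways. Of 15, 5 fell and 7 rose in IMS-M2 +FA, 4 fell and 8 rose in IMS-M2 -FA, 6 fell and 5 rose in U937 +FA, and 6 fell and 3 rose in U937 -FA. Of all tested genes, 33.4% and 30% were lower and 29.8% and 27.5% higher in IMS-M2, and 27% and 31.7% lower and 29.1% and 28% higher in U937, so that the 5 of 15 lower in IMS-M2 +FA was at the background. MLST8, a subunit of both mTOR complexes, fell in each, with log2 changes of -0.77 and -0.74 in IMS-M2 and of -1.49 and -1.52 in U937 (standard errors 0.10 to 0.11). EIF4EBP2, a repressor of cap-dependent initiation, rose in each, with log2 changes of 1.08, 0.98, 0.65 and 0.57 in the same order (standard errors 0.07 to 0.08). Its paralogue EIF4EBP1 went the other way and fell in each, with log2 changes of -0.266, -0.385, -1.262 and -1.116. LARP1 fell in IMS-M2 +FA (-0.474) and in U937 (-0.558 in +FA and -1.092 in -FA). In IMS-M2 -FA LARP1 was not called (0.017, adjusted p = 0.92 in limma). Among fusion genes and paralogues of the members, FAU, which encodes the small subunit protein eS30 fused to a ubiquitin-like protein, fell in all 4 contrasts, with log2 changes of -0.49, -0.36, -0.48 and -0.69 (standard errors 0.09 to 0.11). RPS27L, a p53-induced paralogue of RPS27, rose by 0.98 ± 0.24 in U937 +FA and by 0.69 ± 0.24 in U937 -FA (adjusted p = 0.00441 and 0.0256).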

How the data were processed

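The authors deposited 4 tables of FPKM values, 1 per line and medium, per the file headers and the labels, and the unit was read from the values and the Cuffdiff layout. Per the submitters' processing notes, the tools were TopHat2 2.1.1, Cuffdiff 2.2.1 and bcl2fastq 2.17.1.14, and the build was hg19; strand handling and multi-mapping are not given in the sources used here. Read depth is unknown. Libraries were grouped by title. The U937 -FA columns are numbered from 0, so those 6 were assigned to groups only, and are called columns. The labels do not say that replicates are separate cultures, so p-values measure only the spread between these samples.

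Tests used limma 3.58.1 (R 4.3.3) on log2(FPKM + 1), which understates changes of low genes, with group means, an intensity trend, 12 libraries of a line (24 between lines) and genes with a group mean of at least 1 FPKM. Benjamini-Hochberg adjustment ran over all tested genes, and the call was an adjusted p below 0.05. The procedure was tested on simulated data. Members and lists were chosen with earlier results of these data known. Named genes were drawn from the role lists, the 4 highest and 4 lowest called members per subunit and contrast, the 4 highest and lowest levels, and up to 3 genes per direction of the other lists. Values of 1 member are not reported here by name, and the counts over all 77 include it.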

Additional observations from a re-analysis of the deposited data

Results flagged for a closer look

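The OTX change differed between the lines or between the media, by a test of the difference in limma, in the members and counts below. Between the lines with folic acid, 35 members were called, 31 lower and 4 higher, against 22.9% lower and 27.7% higher of all tested genes. The named differences (U937 change minus IMS-M2 change, log2) were -2.13 for RPL24, -2.42 for RPS25, -0.52 for RPL5, -0.75 for RPL12 and -0.63 for RPL29 on the lower side. On the higher side they were 0.74 for RPLP1, 0.44 for RPLP2, 1.04 for RPS21 and 0.87 for RPS28. With the index as a covariate the 4 on the higher side were 0.25, 0.23, 0.30 and 0.27 and were not called (adjusted p = 0.194, 0.184, 0.224 and 0.239). RPL24, RPS25, RPL5, RPL12 and RPL29 were called with it as well. RPL24 and RPS25 move with the index within groups (correlations 0.92 and 0.98), and their covariate changes in either line, given above, were smaller. Across 76 members, this line difference and the slope on the index had a Pearson correlation of -0.92, as a description.

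Between the lines without folic acid, 51 members were called, each lower in U937, against 21.5% lower and 21.5% higher of all tested genes. The named differences were -1.41 for RPL37, -1.15 for RPL17, -1.09 for RPL26, -0.44 for RPL12, -0.44 for RPL13A, -0.73 for RPL3 and -0.73 for RPL5. They were -0.88 for RPS2, -0.94 for RPLP0, -0.86 for RPLP1 and -1.20 for RPS18. With the covariate RPL37 was at -0.34 and was not called (adjusted p = 0.218), and the other 10 were called.

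Between the media, 5 members were called in IMS-M2 and 1 in U937. Of all tested genes, 3.61% were called lower and 3.33% higher in IMS-M2, and 1.27% and 0.741% in U937. The differences (without folic acid minus with it) were -1.37 for RPL24, -1.004 for RPL6, -0.71 for RPL9, -1.69 for RPS25 and 0.74 for RPS21 in IMS-M2, and -0.74 for RPLP2 in U937. With the covariate none of these 6 was called by limma, and their adjusted p ran from 0.084 to 0.536.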

How the results depend on the processing

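Counts below are members called in either direction. The main fits called 31.7% of all tested genes lower and 28% higher in U937 without folic acid, and 27% and 29.1% with it. Between the lines these shares were 22.9% and 27.7% with folic acid and 21.5% and 21.5% without. In IMS-M2 they were 33.4% and 29.8% with folic acid and 30% and 27.5% without. No such share is given for fits with 1 library left out or with each table fitted alone. In U937 without folic acid the count was 58 and ran from 54 to 61 when 1 library was left out, and in U937 with folic acid it was 41 and ran from 33 to 48. Between the lines it was 35 (31 to 39) with folic acid and 51 (42 to 55) without. In IMS-M2 with folic acid it was 38 (29 to 53), and without it was 8 (5 to 19, with 19 when IMS-M2 +FA DMSO replicate 1 was left out, and 16 with each table fitted alone). With the within-group index as a covariate, chosen after the data were seen, it was 9 in IMS-M2 with folic acid and 19 without. In those covariate fits 25.4% of all tested genes were lower and 26.6% higher with folic acid, and 33.4% and 29.5% without.

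Relative to the median member, a scaling that removes a shift shared by the family, 18 members were called in U937 with folic acid (9 lower, 9 higher), 24 without (9 lower, 15 higher), 15 between the lines without folic acid (1 lower, 14 higher) and 9 for the folic acid difference in U937. Between the lines with folic acid it gave 16 lower and 21 higher. This scaling put the median log2 change of all tested genes at 0.34 in U937 with folic acid and 0.51 without. The share of all tested genes called under it is not given here.

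The folic acid difference in IMS-M2 was called in 5 members; the count was 0 with no filter on low values, 8 with a filter at 5 FPKM, 13 with the replicate block and 0 with the covariate, and ran from 0 to 36 with 1 library left out (36 without IMS-M2 +FA DMSO replicate 1). In U937 it was 1; it was 0 with a pseudocount of 0.1 and with no filter, 2 with a filter at 5 FPKM, 2 with median-ratio scaling and 3 with no intensity trend, and ran from 0 to 36 (36 without U937 -FA DMSO column 1, 33 without U937 +FA DMSO replicate 1). In the main fits 3.61% of all tested genes were lower and 3.33% higher in IMS-M2, and 1.27% and 0.741% in U937. Shares of all tested genes in these alternative fits are not given here. The causes were not tested.

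The labels do not say whether replicate numbers pair the samples, and the main fits used no pairing. In U937 +FA, same-numbered DMSO and OTX libraries correlated in their deviations at -0.34 to 0.13. The highest correlation in that medium, 0.51, was between different numbers. In IMS-M2, same-numbered libraries correlated at 0.06 to 0.28 in +FA and at 0.09 to 0.22 in -FA. Each IMS-M2 -FA library correlated best with its own number, as did all but OTX replicate 1 in IMS-M2 +FA. With the block 30 members were called in U937 with folic acid, 42 in IMS-M2 with folic acid and 7 without. The share of all tested genes called with the block is not given here. Of the single-member changes under the alternatives, 150 lost their call, 7 gained one and 0 turned direction while called. Depth is unknown, so no counting error could be given.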
